A study of Mus musculus with 6 samples.

Results

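The BCL2 family of apoptosis genes was followed across 6 RNA sequencing libraries of BUMPT cells, which the labels call renal tubular epithelial cells and which are known as a mouse proximal tubule line. Its 10 members here were Bax, Bak1, Bok, Bcl2, Bcl2l1, Mcl1, Bad, Bid, Bbc3 and Pmaip1, chosen by name, and their 24 listed mouse transcripts were found by matching transcript IDs to GENCODE M21. They are 10 of 11236 gene symbols in the table, and all 10 were among the 10405 genes with a mean of at least 1 that were tested. The group of 3 libraries labelled tRF-Val takes its name from the valine tRNA-derived fragment tRF-Val-TAC-004 and was set against 3 libraries labelled NC. Whether cells received the fragment or an inhibitor of it, what NC stands for, and any dose or time are not in the labels. The stated aim was to find an apoptosis gene downstream of the fragment.

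Proteins of this family decide whether the outer mitochondrial membrane stays closed. The effectors Bax, Bak1 and, in some settings, Bok open pores in it, and the guardians Bcl2, Bcl2l1 (BCL-XL) and Mcl1 hold them back. The BH3-only proteins Bad, Bid, Bbc3 (PUMA) and Pmaip1 (NOXA) carry stress signals to both. In renal tubular cells this switch is a known step in death after ischaemia. Much of its control acts on the proteins, through cleavage, phosphorylation, movement and decay, which transcript abundance does not measure.

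The family is held together by the BH3 motif, a short helix with a conserved leucine and, a few residues on, a conserved aspartate. The DNA that encodes it is shown for 9 members, from the transcript with the highest mean of each gene, to show what they share and how they differ in base composition. Each of these coding sequences held exactly 1 match to the core (a leucine codon, 3 further codons, a glycine, serine or alanine codon, and an aspartate codon), and that of Pmaip1, which is not shown, held 2. Capitals mark the leucine codon and the last pair of codons of the core, read 5′ to 3′ on the coding strand in GENCODE M21 (GRCm38).
Bax: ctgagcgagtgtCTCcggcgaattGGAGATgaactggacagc
Bak1: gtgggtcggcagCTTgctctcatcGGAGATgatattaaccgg
Bok: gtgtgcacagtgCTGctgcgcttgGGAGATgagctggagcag
Bcl2: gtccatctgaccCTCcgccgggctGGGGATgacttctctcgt
Bcl2l1: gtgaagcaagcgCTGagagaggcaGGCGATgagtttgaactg
Mcl1: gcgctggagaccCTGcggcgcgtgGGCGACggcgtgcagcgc
Bad: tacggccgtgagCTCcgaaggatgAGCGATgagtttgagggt
Bid: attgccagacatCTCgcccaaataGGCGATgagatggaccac
Bbc3: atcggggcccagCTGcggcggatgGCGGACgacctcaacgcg

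Among effectors and guardians the residue before the aspartate is encoded by a glycine codon throughout, while Bad has a serine codon and Bbc3 an alanine codon there. The stretches lie in coding exons at chr7:45465994-45466035 on the minus strand for Bax, chr17:27022528-27022569 on the minus strand for Bak1 and chr1:93686645-93689173 on the plus strand for Bok, where an intron divides it. For the guardians they lie at chr1:106712572-106712613 on the minus strand (Bcl2), chr2:152829694-152829735 on the minus strand (Bcl2l1) and chr3:95659424-95659465 on the plus strand (Mcl1). For the BH3-only genes they lie at chr19:6950780-6950821 on the plus strand (Bad), chr6:120897286-120897327 on the minus strand (Bid) and chr7:16313761-16313802 on the plus strand (Bbc3). Their GC content ran from 52.4% in Bid to 73.8% in Bbc3 and 81% in Mcl1.

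The values are abundances per transcript that the authors scaled to each library, and they were added over the listed transcripts of a gene. Whether they are FPKM or TPM is not stated and the depth of each library is unknown. Both units are per length, and on that reading levels of different genes are set side by side. Trends with length and GC content, described below, were not removed from those levels. In bulk RNA, fewer cells of a type and less RNA per cell cannot be told apart. Nothing in the labels ties the 3 libraries of a group to separate cultures; the p-values then reflect the spread between libraries alone, and that spread may be technical. A fold change is the tRF-Val mean minus the NC mean on the log2(value + 1) scale, where the change of a low gene is understated. Values of single libraries are given in the order of replicates 1, 2 and 3. Of 7 general epithelial markers 7 were listed, with sums of 776 to 916 in tRF-Val and 464 to 683 in NC. Those sums came mostly from Krt8 and Krt18, which, like Epcam, were higher in each tRF-Val library than in any NC library. Cldn1 went the other way, at 54.5, 44.3 and 49.6 in tRF-Val, against 78.4, 74.3 and 71.7 in NC. Its log2 fold change was -0.59 (limma adjusted p 0.0893). For Krt19, Cdh1 and Cldn4 the groups overlapped. Of 8 proximal tubule markers only Aqp1 was listed, at 17.6 to 25.8 in tRF-Val and 8.73 to 31.3 in NC. The defining markers Lrp2, Cubn and Slc34a1 were not listed. Of 7 leukocyte markers 2 were listed, with sums of 32.2 to 37.9 in tRF-Val and 5.81 to 21.6 in NC that came almost wholly from Cd14, while Ptprc was not listed; the part of other cells in the results was not tested. Of 7 fibroblast markers 2 were listed, and of 5 endothelial and 5 cartilage and synovial markers 1 each, the last because the protocol text in the labels mentions joint tissue. Mitochondrially encoded transcripts held 3.16% to 5.29% of the mouse values in tRF-Val, against 6.32% in NC 1, 6.58% in NC 2 and 17.5% in NC 3. NC 3 thus stood apart within its group. The endothelial marker, Cdh5, was at 5.02, 2.72 and 2.96 in tRF-Val, against 8.03, 7.76 and 6.25 in NC. It was lower in each tRF-Val library (log2 fold change -0.90, limma adjusted p 0.101), opposite to Cd14 and the epithelial sum but like Cldn1.

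None of the 10 members passed the threshold between tRF-Val and NC. With p-values adjusted over all genes, the smallest limma adjusted p among the members was 0.184, for Bax, and 0 of 10 members had even an unadjusted p under 0.05. Over all genes tested, 27 of 10405 (0.259%) passed, 6 higher (0.0577%) and 21 lower (0.202%), and 27.8% had an unadjusted p under 0.05. Values of the groups did not overlap for 4 of 10 members (Bax and Bbc3 higher in tRF-Val, Bcl2 and Pmaip1 lower), against 42.5% of all genes (20.3% higher and 22.1% lower), so that share is near the background. The median fold change of the members was 0.14, and that of all genes was 0.01; without NC 3 these medians were -0.09 and -0.08. Without NC 3 the number of genes called grew to 593 (5.71%), and 0 of 10 members were among them.

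**Figure D1:**
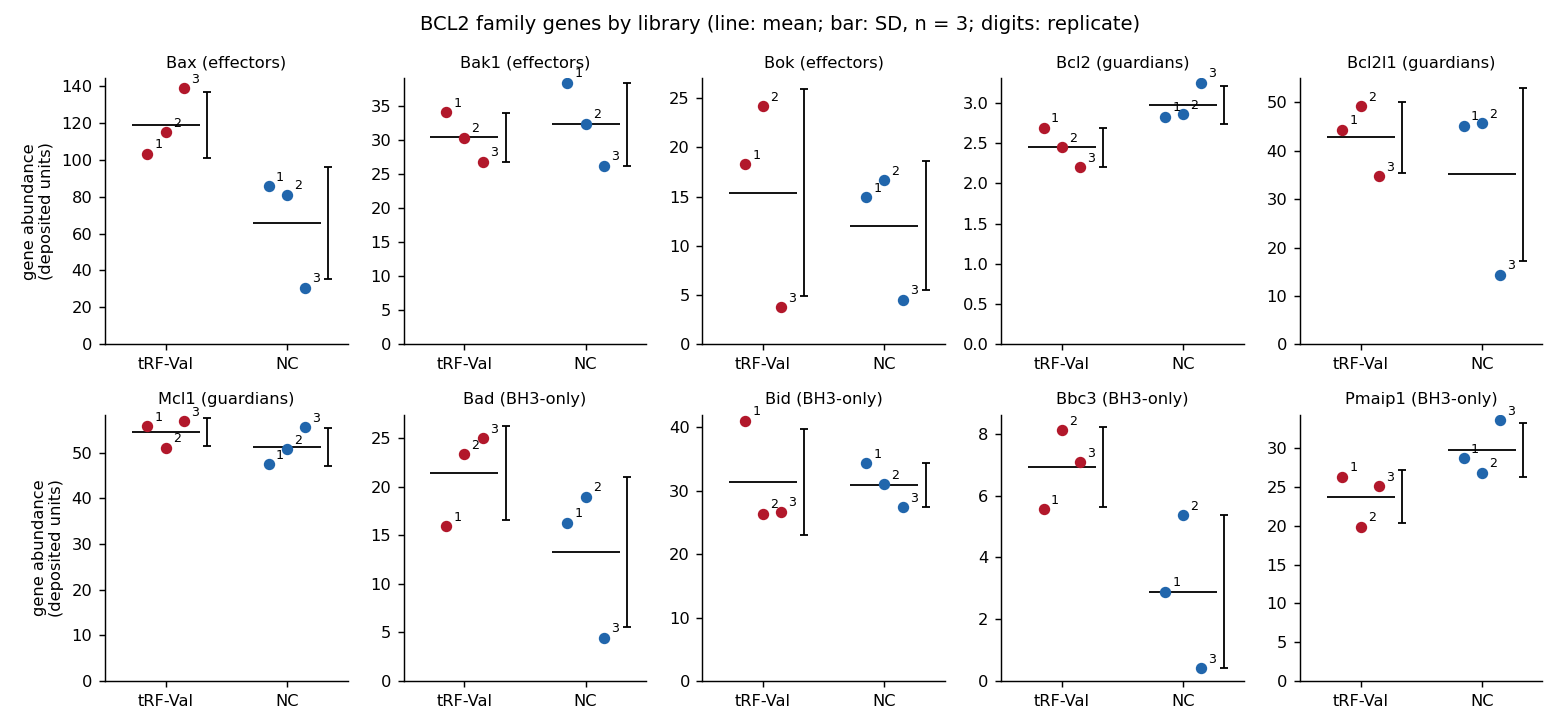
Gene abundance (deposited units, from 0) of each BCL2 family gene in the 3 tRF-Val and 3 NC libraries; points are libraries with their replicate numbers, lines are means and bars are SD. NC 3 is far below the other NC libraries for Bax, Bok, Bcl2l1, Bad and Bbc3, and close to or above them for Bcl2, Mcl1 and Pmaip1.

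Among the effectors Bax was the most abundant, and it had the smallest limma p of the 10 members. It was at 103, 115 and 139 in the tRF-Val libraries, against 85.5, 81.1 and 30.7 in the NC libraries. Each tRF-Val library lay above each NC library, and NC 3 was far below the other NC libraries. The means were 119 ± 18.1 in tRF-Val and 65.8 ± 30.4 in NC (SD, n = 3 each), a log2 fold change of 0.97 (SE 0.405, 95% interval -0.01 to 1.95, limma adjusted p 0.184). Without NC 3 the fold change was 0.50 with an interval of 0.13 to 0.86, narrower than with it, and the limma adjusted p was 0.0833. After removal of the trend that each library showed with length and GC content of the transcripts it was 0.12 (-0.33 to 0.57, limma adjusted p 0.755), and with that correction and without NC 3 it was -0.05. The Bax difference was thus positive under either change alone, at a smaller size, and not under both together.

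Bak1, the effector that resides on mitochondria, was at 34.1, 30.4 and 26.8 in the tRF-Val libraries, against 38.5, 32.4 and 26.3 in the NC libraries. The groups overlapped over nearly their whole range, with a log2 fold change of -0.08 (SE 0.188, 95% interval -0.53 to 0.38, limma adjusted p 0.804). After the length and GC correction the Bak1 fold change was -0.39 (-0.75 to -0.03, limma adjusted p 0.246), and without NC 3 it was -0.21 (-0.58 to 0.15). Bok, the effector that is not held by the guardians, was at 18.3, 24.2 and 3.78 in the tRF-Val libraries, against 14.9, 16.6 and 4.51 in the NC libraries. Its lowest values came from tRF-Val 3 and NC 3, so that libraries of the same group differed more than the groups did. The log2 fold change of 0.19 had a 95% interval of -1.61 to 1.997, the widest of the 10, and became -0.34 without NC 3.

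Of the guardians, Mcl1, a protein of rapid turnover, was the steadiest member. It was at 55.8, 51.1 and 56.9 in the tRF-Val libraries, against 47.4, 50.7 and 55.6 in the NC libraries, and unlike most members it was not low in NC 3. The log2 fold change was 0.09 (SE 0.134, 95% interval -0.23 to 0.41, limma adjusted p 0.67). After the length and GC correction it was 0.33 (0.06 to 0.60, limma adjusted p 0.21), and when libraries were rescaled without mitochondrial transcripts it was -0.16. With the length and GC correction 2 of 10 members, Bak1 lower and Mcl1 higher, had an unadjusted p under 0.05 by limma, against 18.4% of all genes.

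Bcl2l1 was at 44.4, 49.2 and 34.7 in the tRF-Val libraries, against 45.2, 45.7 and 14.4 in the NC libraries. Apart from NC 3 the groups held much the same values. The log2 fold change was 0.43 (SE 0.456, 95% interval -0.67 to 1.53, limma adjusted p 0.547), and without NC 3 it was -0.10 (-0.52 to 0.32). Bcl2, the founding guardian, was the lowest member by mean, at 2.69, 2.45 and 2.20 in the tRF-Val libraries, against 2.83, 2.86 and 3.25 in the NC libraries. Each tRF-Val library lay below each NC library by a small margin. Its log2 fold change was -0.21 (SE 0.156, 95% interval -0.58 to 0.17, limma adjusted p 0.404), and after the length and GC correction it was 0.35, with the opposite sign.

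Among the BH3-only genes Bbc3, a direct p53 target that binds all guardians, had the largest fitted fold change of the 10 members. It was at 5.56, 8.13 and 7.09 in the tRF-Val libraries, against 2.89, 5.37 and 0.419 in the NC libraries. The groups did not overlap, but the margin between tRF-Val 1 and NC 2 was small, and NC 3 was near 0. The log2 fold change was 1.26 (SE 0.541, 95% interval -0.05 to 2.57, limma adjusted p 0.191), and 0.66 without NC 3 (limma adjusted p 0.149). Its sign was positive in all 16 alternatives that gave a value for it, from 0.40 to 1.86, and it passed in none of them.

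Pmaip1, which binds chiefly Mcl1, was at 26.3, 19.9 and 25.1 in the tRF-Val libraries, against 28.7, 26.9 and 33.6 in the NC libraries. It ran the other way from Bbc3: each tRF-Val library was below each NC library, and NC 3 was the highest of all. The log2 fold change was -0.32 (SE 0.172, 95% interval -0.73 to 0.10, limma adjusted p 0.267), negative in all 17 alternatives, -0.08 after the length and GC correction, and past the threshold in none. Bad, a sensitiser that binds Bcl2 and Bcl2l1, was at 15.9, 23.4 and 25.0 in the tRF-Val libraries, against 16.3, 19.0 and 4.45 in the NC libraries. Its log2 fold change of 0.84 (SE 0.514, limma adjusted p 0.315) was 0.25 without NC 3 and 0.08 after the length and GC correction. Bid, which caspase-8 cleaves to link death receptors to mitochondria, was at 41.0, 26.4 and 26.7 in the tRF-Val libraries, against 34.4, 31.0 and 27.4 in the NC libraries. Its fold change was -0.01 with a 95% interval of -0.52 to 0.51.

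**Figure D2:**
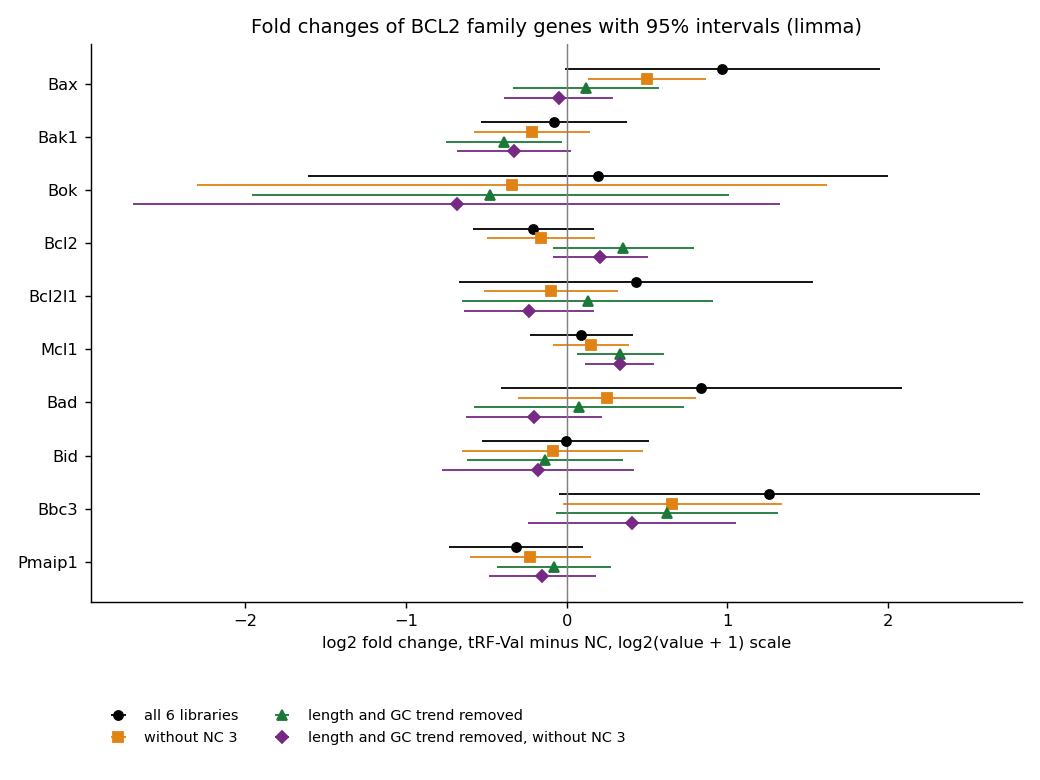
Log2 fold changes (tRF-Val minus NC, log2(value + 1) scale) of the 10 genes with 95% intervals from limma, in 4 fits that differ in whether NC 3 is kept and whether the length and GC trend is removed. With all libraries and no correction every interval contains 0. With the correction and all libraries those of Bak1 (-0.75 to -0.03) and Mcl1 (0.06 to 0.60) do not. Nor does that of Bax without NC 3 (0.13 to 0.86, limma adjusted p 0.0833). With the correction and without NC 3 that of Mcl1 is 0.11 to 0.54 (limma adjusted p 0.118). The estimates of Bax, Bad and Bbc3 shrink without NC 3, and those of Bok and Bcl2l1 change sign.

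NC 3 was lowest, relative to the other NC libraries, for members of high GC content and, less closely, of short transcripts. It was under 0.5 times the lower of NC 1 and NC 2 for 5 of 10 members, against 18.6% of all genes. Those 5 were Bbc3, Bad, Bok, Bcl2l1 and Bax, at 0.101, 0.252, 0.286, 0.317 and 0.369 of the mean of NC 1 and NC 2. Their listed transcripts had GC contents of 65.2%, 60.3%, 61.0%, 55.5% and 59.6%. The members with the lowest GC content, Pmaip1 (42.1%), Bcl2 (45.8%) and Mcl1 (48.7%), were instead at 1.21, 1.14 and 1.13 times that mean. Bak1 (57.1%) and Bid (50.6%) lay between, at 0.741 and 0.839. Over the 10 members Spearman's rho between GC content and the NC 3 difference was -0.94, and over all 10405 genes it was -0.65, both as descriptions of these 3 libraries. With transcript length the rho was 0.75 over the members and 0.21 over all genes. The median GC content was 56.3% over the members and 50.1% over all genes. Without NC 3 the fold changes of these 5 members were smaller or of the opposite sign, as given above, and the part of base composition and length in the difference between the groups was not tested beyond the length and GC correction.

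**Figure D3:**
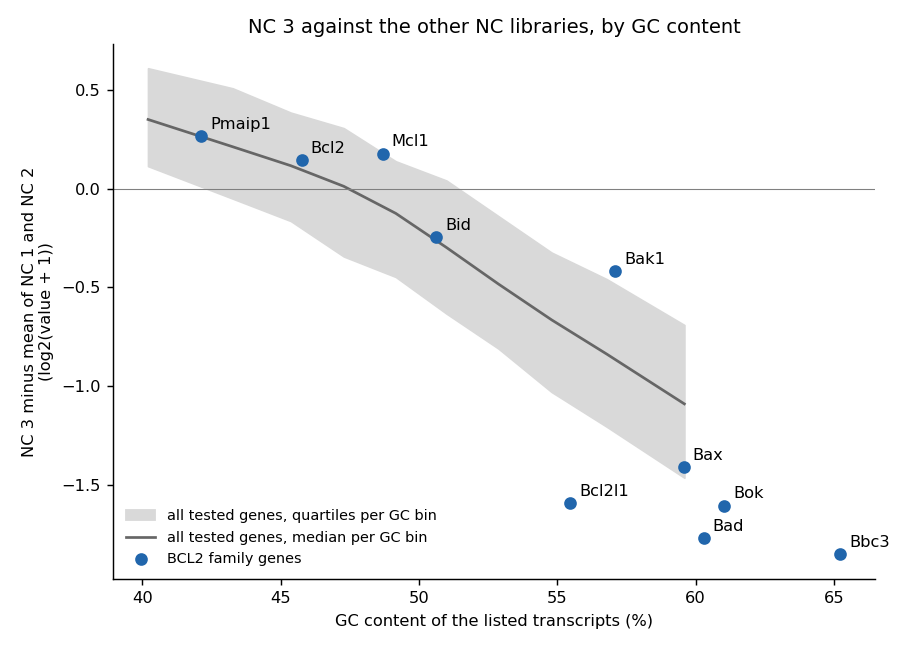
Difference of NC 3 from the mean of NC 1 and NC 2 (log2(value + 1) scale) against the GC content (%) of each gene's listed transcripts; points are the 10 BCL2 family genes, the line and band are the median and quartiles of all tested genes in 10 GC bins. Genes of high GC content were lower in NC 3. Among the family Bcl2l1, Bok, Bad and Bbc3 lie below the lower quartile of their GC bin, while Bak1 and Mcl1 lie slightly above the upper one.

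The order of levels within the family was much the same in 5 libraries and different in NC 3. Bax ranked first and Mcl1 second in every library but NC 3, where Mcl1 ranked first, then Pmaip1 and then Bax. By the mean over 6 libraries the order was Bax (92.3), Mcl1 (52.9), Bcl2l1 (38.9), Bak1 (31.4), Bid (31.1), Pmaip1 (26.8), Bad (17.3), Bok (13.7), Bbc3 (4.91) and Bcl2 (2.71). The library ranges of every pair of neighbours in this order overlapped, so no step was beyond the spread. Mcl1 was above Bcl2l1 in 6 of 6 libraries, while Bad was above Bok in 3. Among all tested genes Bax stood at percentile 92.6 and Bcl2 at 14.9.

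Summed by role, the effectors reached 156, 169 and 169 in the tRF-Val libraries, against 139, 130 and 61.5 in the NC libraries. The guardians reached 103, 103 and 93.8 in tRF-Val, against 95.5, 99.3 and 73.3 in the NC libraries. The BH3-only genes reached 88.8, 77.7 and 83.9 in tRF-Val, against 82.3, 82.2 and 65.9 in the NC libraries. Bax made up 66.3%, 67.8% and 81.9% of the effector sum in tRF-Val, against 61.6%, 62.3% and 49.96% in the NC libraries. The ratio of the effector sum to the guardian sum was 1.51, 1.65 and 1.81 in tRF-Val, against 1.46, 1.31 and 0.84 in NC. Its lowest tRF-Val library and its highest NC library were thus almost level.

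The ratio of Bax to Bcl2, a common summary of this switch, was 38.3, 46.8 and 63.1 in the tRF-Val libraries, against 30.2, 28.4 and 9.45 in the NC libraries. Because Bcl2 was the scarcest guardian, the ratio depends on which guardian is chosen. Bax to Bcl2l1 was 2.32, 2.33 and 4.00 in tRF-Val, against 1.89, 1.77 and 2.13 in NC, and Bax to Mcl1 was 1.85, 2.25 and 2.44 in tRF-Val, against 1.80, 1.60 and 0.553 in NC. In all 3 ratios the groups did not overlap, but the ratios share the numerator Bax, whose groups did not overlap by itself. NC 3 was the lowest library in the ratios to Bcl2 and Mcl1 but the highest NC library in that to Bcl2l1, itself low in NC 3. These ratios are of values with no correction. After the length and GC correction the fold change of Bax was 0.12, against 0.35 for Bcl2, 0.13 for Bcl2l1 and 0.33 for Mcl1, so that the fold change of Bax was not above that of any guardian. No test was run on these ratios; with 3 libraries a group the smallest two-sided p of an exact permutation test is 0.1.

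**Figure D4:**
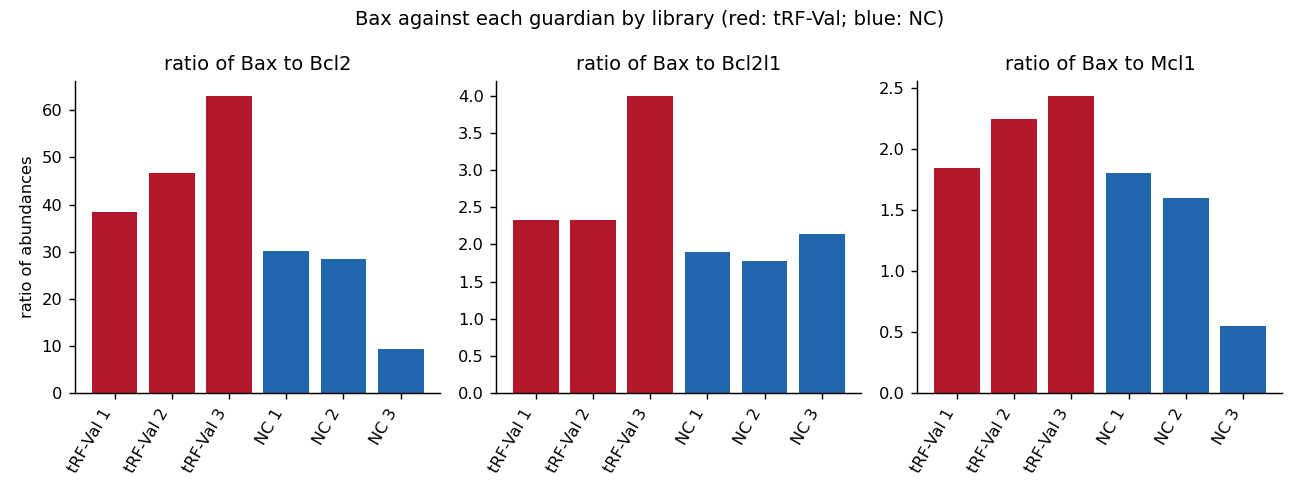
Ratio of Bax abundance to that of each guardian in each library (bars start at 0, 3 tRF-Val libraries left of 3 NC libraries). The tRF-Val bars are above the NC bars in each panel, by the least between tRF-Val 1 and NC 1 for Bax to Mcl1 (1.85 and 1.80).

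Of the 24 listed transcripts of the family 16 had a mean of at least 1 and were tested over all transcripts, and 0 passed, against 1.14% of all 16320 transcripts tested. Among the 16, 1 had an unadjusted p under 0.05 (19.4% of all transcripts), and groups did not overlap for 7 (33.5% of all). The 1 was Bax-205, at 12.2, 11.0 and 13.9 in the tRF-Val libraries, against 8.13, 9.51 and 5.35 in the NC libraries. Its log2 fold change was 0.65 with a limma adjusted p of 0.241. Bax-205 codes for 513 bases against 576 in Bax-201, the main transcript of the gene. Bax-201 held 73.9% to 79.6% of the Bax sum in tRF-Val and 73.8% to 79.6% in NC, so the Bax values follow that transcript.

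The listed make-up of Bcl2 differed between the groups, at low values of both its transcripts. The long transcript Bcl2-201, of 7191 bases with 2 exons, was at 1.85, 1.49 and 1.52 in the tRF-Val libraries, against 2.32, 2.18 and 2.64 in the NC libraries. The single-exon transcript Bcl2-202, of 2841 bases with a shorter coding part (597 against 708 bases), took 31.4%, 39.1% and 31.1% of the Bcl2 sum in tRF-Val, against 17.9%, 23.7% and 18.9% in the NC libraries. Its share was higher in every tRF-Val library than in any NC library, NC 3 included. Bcl2-201 did not pass (log2 fold change -0.37, limma adjusted p 0.381), Bcl2-202 was too low to be tested with a mean of 0.71, and the share itself was not tested. What part of all genes shows such a shift was not computed, so the shift has no background beside it. The division of reads between the Bcl2 transcripts is the authors' estimate. The transcripts differ in length, and the part of length in the share was not tested.

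Transcripts of Bcl2l1 moved between libraries of the same group. Bcl2l1-202 held 76.7%, 51.2% and 69.7% of the sum in the tRF-Val libraries, against 74.7%, 67.2% and 27.9% in the NC libraries. Bcl2l1-201, whose coding part has the same length of 699 bases, was at 1.09, 19.5 and 8.17 in tRF-Val, against 2.63, 5.91 and 2.33 in NC. How reads were divided between these similar transcripts is the authors' estimate, so the gene sum is the firmer value. Bcl2l1-204, with an open 3′ end in the annotation, had a value of 2.098 in the first tRF-Val library and was at 0 in the others, against 0.963, 2.68 and 3.67 in the NC libraries. A short open-ended transcript of Bid, Bid-203, was at 0.220, 0 and 0.101 in the tRF-Val libraries, against 1.86, 0.738 and 2.93 in NC. Bid-203 held 2.38% to 10.7% of the Bid sum in NC and its mean was below 1, so it was not tested. Bad was divided between Bad-201 and Bad-202, with 37.7% to 47.8% of the sum in Bad-201 in tRF-Val and 31.9% to 40.5% in NC.

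**Figure D5:**
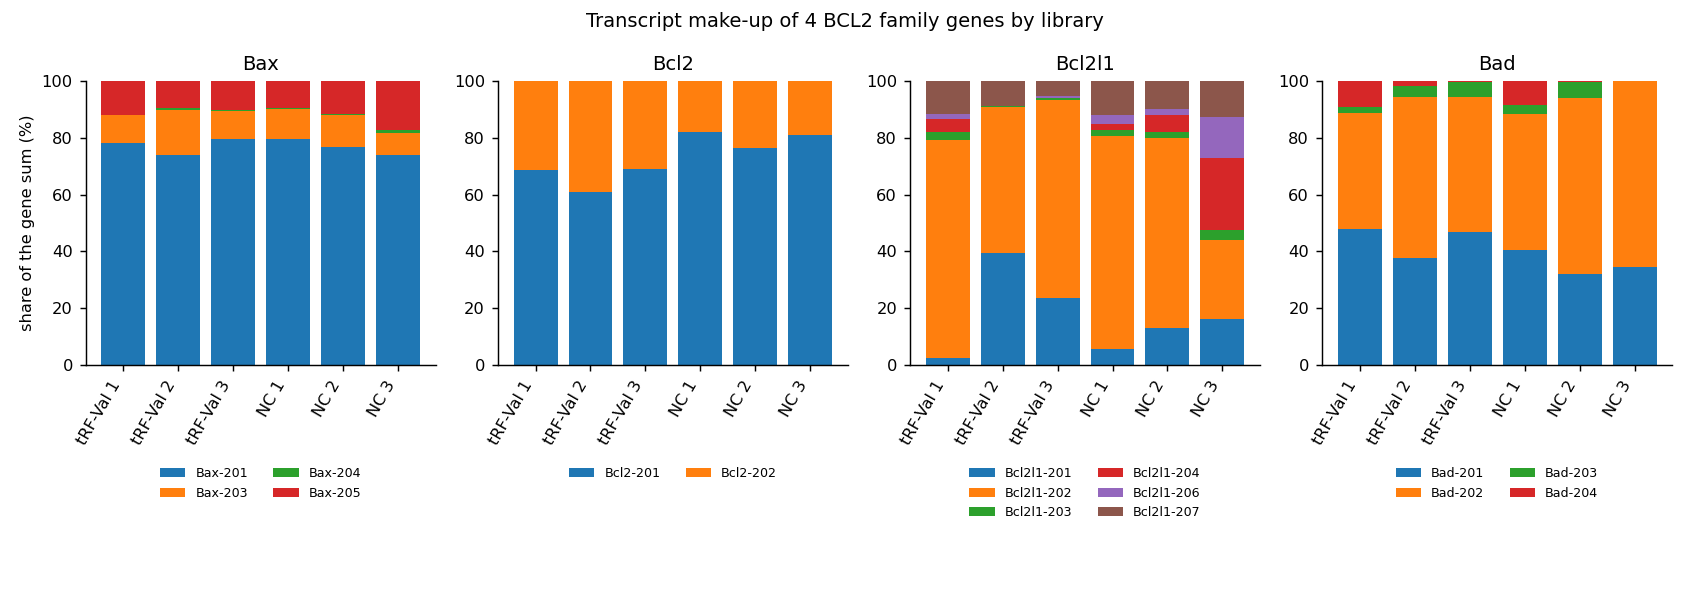
Share (%) of each listed transcript in the gene sum of Bax, Bcl2, Bcl2l1 and Bad, for 3 tRF-Val libraries and 3 NC libraries. Bcl2-202 takes 31.1% to 39.1% in tRF-Val and 17.9% to 23.7% in NC, while the Bcl2l1 transcripts differ as much between libraries of a group as between groups.

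Other genes of the pathway, from lists chosen by function, gave 0 calls in either direction by limma among 40 tested. At an unadjusted p under 0.05, 5 of the 40 were higher and 2 lower (17.5% in all), a smaller share than the 27.8% of all genes (12.2% higher, 15.6% lower). Of 15 further BCL2 family genes 8 were listed and tested, 7 with positive fold changes and a median of 0.19 (0.04 without NC 3). Over all genes 5318 of 10405 were positive. Those of Bcl2l2 and Bnip3l were near 0 (both 0.0068), and without NC 3 those of Bmf and Bcl2l2 were -0.13 and -0.77. Bnip3, a mitophagy receptor, had the smallest p among the 8, at 27.9, 27.3 and 27.5 in the tRF-Val libraries, against 20.3, 22.3 and 22.2 in the NC libraries. That difference was small but wider than the spread within either group, with a log2 fold change of 0.34 and a limma adjusted p of 0.156. When libraries were rescaled without mitochondrial transcripts the fold change of Bnip3 was 0.095 (limma adjusted p 0.70). Bcl2l12 was at 7.31, 6.04 and 6.31 in tRF-Val, against 4.84, 2.99 and 0.184 in NC, a log2 fold change of 1.32 that was 0.64 without NC 3 (limma adjusted p 0.196 and 0.0976). Bcl2l11 (BIM), a strong BH3-only activator, and Bcl2l15 had fold changes of 0.35 and 0.21, and of 0.05 and 0.30 without NC 3.

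Among 8 genes of mitochondrial channels and of proteins released when the pore opens, 7 were tested, with a median of 0.23. Vdac3, a channel of the outer membrane, was at 179, 181 and 194 in the tRF-Val libraries, against 142, 161 and 109 in the NC libraries (log2 fold change 0.44, limma adjusted p 0.17, and 0.29 without NC 3). Rescaled without mitochondrial transcripts, the Vdac3 fold change was 0.19. Cycs, the cytochrome c that nucleates the apoptosome, was at 91.7, 106 and 104 in tRF-Val, against 81.7, 87.7 and 87.2 in NC (0.23, limma adjusted p 0.286), and its fold change was 0.59 after the length and GC correction. Diablo and Endog had fold changes of 1.10 and 1.12, the smallest limma adjusted p being 0.105 for Diablo. Without NC 3 they were 0.98 and 0.76, and after the length and GC correction 0.81 and 0.24.

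All 16 genes of binding partners and turnover were tested, 6 with positive and 10 with negative fold changes. Usp9x, a deubiquitinase that stabilises the Mcl1 protein, was at 9.67, 6.30 and 6.33 in the tRF-Val libraries, against 15.7, 14.1 and 21.4 in the NC libraries. Huwe1, a ubiquitin ligase that marks Mcl1 for decay, was at 14.0, 11.5 and 9.79 in tRF-Val, against 19.2, 17.5 and 19.1 in NC. Both were thus lower in each tRF-Val library, with log2 fold changes of -1.10 and -0.63 and limma adjusted p of 0.0863 and 0.102. After the length and GC correction the fold changes were -0.37 and -0.08. Bag1, a Bcl2-binding cochaperone, was at 480 to 504 in tRF-Val and 323 to 419 in NC (0.46, limma adjusted p 0.13). It passed without NC 3 (0.58, limma adjusted p 0.0372), and after the length and GC correction its sign changed (-0.09). Bcap31, an endoplasmic reticulum protein that binds family members, had a fold change of 0.49 (limma adjusted p 0.182), and of 0.29 without NC 3.

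Of 10 genes of transcriptional control 9 were tested, with a median of 0.18, and of -0.03 without NC 3. Trp53, whose protein activates Bax, Bbc3 and Pmaip1, was at 88.6, 68.6 and 69.0 in the tRF-Val libraries, against 83.6, 81.4 and 28.7 in the NC libraries, again low in NC 3 alone (log2 fold change 0.36, limma adjusted p 0.594, and -0.14 without NC 3). Mdm2, the ubiquitin ligase that p53 induces and that degrades it, was at 0.937, 20.8 and 28.1 in the tRF-Val libraries, against 2.38, 2.56 and 1.99 in the NC libraries. Its tRF-Val libraries thus disagreed, 1 lying below all NC libraries and the other two far above them. The log2 fold change was 1.70 (limma adjusted p 0.299), and 2.93 without tRF-Val 1 (limma adjusted p 0.0238). Atf4, Myc and Stat3 had fold changes of 0.59, -0.30 and -0.57, with limma adjusted p of 0.26, 0.185 and 0.186. Without NC 3 that of Atf4 was 0.23.

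Since Bax and Bbc3 are known p53 targets, the promoter windows of RefSeq (GRCm38.p6, 250 bases before to 50 after a start) were searched for the p53 half-site on both strands. Of 14 windows of 9 members (Pmaip1 had none and was not searched), the Bax window alone held a match, at 1 place. Among all 32851 windows of that length 8.36% held one, so 1 of 14 windows is near the background. The pattern searched is its own reverse complement, so any match reads on both strands and is still 1 half-site. The Bax window, chr7:45466849-45467148 on the minus strand, is shown 5′ to 3′ with the match in capitals.
Bax: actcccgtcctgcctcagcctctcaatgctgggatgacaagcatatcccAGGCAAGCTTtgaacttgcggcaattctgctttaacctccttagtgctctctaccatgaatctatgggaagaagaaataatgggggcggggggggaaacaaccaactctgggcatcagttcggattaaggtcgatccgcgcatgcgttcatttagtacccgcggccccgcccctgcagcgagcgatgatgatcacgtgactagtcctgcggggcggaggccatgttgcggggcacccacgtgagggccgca

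A GC box (GGGCGG, both strands) occurred in 9 of the 14 windows and in 35.7% of all windows, and in the Bax window its 3 matches did not overlap the half-site. The windows are not independent. Bbc3, Bcl2l1 and Bad each gave several, and those of Bbc3 at chr7:16310011-16310310 and chr7:16310181-16310480 overlap. Every Bbc3 window held a GC box. TATAAA occurred in 0 of 14 windows (13.6% of all) and CCAAT in 2 (37.4% of all). A match is a description of the letters only, and the windows do not cover introns or more distant sequence.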

How the data were processed

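Trizol RNA went into a stranded library kit based on dUTP, per the labels' protocols. Cutadapt, HISAT2 2.1.0 and StringTie were used, per the submitters' processing notes, which name the human build GRCh38. Each deposited value is a signal, the abundance of 1 transcript in 1 library as scaled by the authors; FPKM or TPM is not stated. Of 30813 rows, 9210 carry human IDs and were not used (8.97% to 9.81% of the values in tRF-Val, 10.8% to 12.1% in NC). Of 21603 mouse rows, 21558 matched GENCODE M21 (GRCm38). The mouse values summed to 421201, 444539 and 435472 in the tRF-Val libraries, against 387611, 388274 and 389669 in the NC libraries. The main fit did not rescale them.

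Values were added per gene symbol and fitted as log2(value + 1), for genes with a mean of at least 1, with limma 3.58.1 in R 4.3.3 (trend and robust moderation, both groups in 1 fit, no covariate). Two-sided p-values were adjusted over all genes by Benjamini-Hochberg, with a threshold of 0.05; transcripts were fitted likewise. The fit was tested on simulated data. Alternatives changed the pseudocount, filter, scaling and moderation, removed loess trends (span 0.3) with length and GC content, added a replicate block, or left out a library. The length and GC correction without NC 3 was chosen after seeing the data.

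The members and gene lists were chosen with earlier results of these data known. Named genes are the members and up to 4 genes of each list with the smallest p. Trp53, and the transcripts singled out, were named after their values were seen.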

Additional observations from a re-analysis of the deposited data

How the results depend on the processing

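The count of BCL2 family members past the threshold was 0 in all 17 alternatives, and so was that of their transcripts. The count over all genes, 27 (6 higher, 21 lower), was 5 and 0 with pseudocounts of 0.1 and 0.01, 2 with a mean of at least 5 and 47 without trend or robust moderation. It was 71 (22 higher, 49 lower) with quantile normalization, 208 (22 and 186) after rescaling without mitochondrial transcripts, 38 (15 and 23) with a common median, and 109 with length and GC corrected and NC 3 left out. Leaving out 1 library gave 4 to 593 genes, the highest without NC 3. With the replicate number as a block 0 genes passed. Same-numbered libraries had correlations of -0.03, 0.02 and -0.01 in their deviations from the group means, and no library correlated best with its own number. The labels give same-numbered libraries only a number in common, and these correlations cannot tell whether they share a culture or batch.

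None of the members or named genes passed with all libraries and no correction, so those whose fold change turned its sign had not passed either. The fold change of Bag1 passed without NC 3. The cause of the turns was not tested. With length and GC corrected the fold changes that turned were those of Bok (-0.48), Bcl2 (0.35), Bcl2l15 (-0.20), Bag1 (-0.092) and Trp53 (-0.011). With NC 3 also left out they were Bax (-0.050), Bok (-0.69), Bcl2 (0.21), Bcl2l1 (-0.24), Bad (-0.20), Bcl2l15 (-0.18), Vdac3 (-0.0017), Bcap31 (-0.073), Atf4 (-0.018) and Trp53 (-0.37). After rescaling without mitochondrial transcripts they were Bok (-0.032), Mcl1 (-0.16) and Cycs (-0.028). Quantile normalization gave -0.034 for Mcl1, and a common median gave 0.044 for Bid. Leaving out single libraries gave ranges of -0.34 to 0.93 for Bok, -0.21 to 0.0999 for Bid, -0.21 to 0.052 for Bak1, -0.10 to 0.70 for Bcl2l1 and -0.14 to 0.62 for Trp53. Bcl2 and Bbc3 had no value with a mean of at least 5, which removes them. Depth is unknown, so how far it limits low members such as Bcl2 cannot be given.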
